A study of Homo sapiens with 6 samples.

Results

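The genes described are 10 that handle heme and iron: HMOX1 and HMOX2, the biliverdin reductases BLVRA and BLVRB, the ferritin subunits FTL and FTH1, and TFRC, SLC40A1, NCOA4 and IREB2, which import, export, release and sense iron. They were picked by symbol from the 28278 symbols of the count tables, and all 10 were found. HMOX1 and FTL were already known to be higher in this comparison when the set was drawn up, so the differences of the 10 genes are given as a description of these libraries and support no claim about the set. RNA came from HCT116, an established colon carcinoma line, with 3 libraries per group, both taken at day 21. The control cells (shControl) stably expressed a scrambled shRNA. The knockdown cells (shTRIM21) stably expressed an shRNA against TRIM21, an E3 ubiquitin ligase. Cells of both groups had therefore been through lentiviral infection and selection with 5 µg/ml puromycin, begun 36 h after infection, although the shControl cells are labelled WT. The titles call the libraries biological replicates, and the labels name 1 shRNA per group. They say neither whether the lines were pools or clones nor whether the replicates were separately infected or only separately grown. The p-values therefore measure only the spread between these libraries, part of which may be technical.

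Heme oxygenases open the heme ring and release iron, carbon monoxide and biliverdin, which biliverdin reductases turn into bilirubin. Free iron is stored inside shells built of ferritin heavy and light chains, and the receptor NCOA4 delivers those shells to lysosomes when iron is needed. The transferrin receptor TFRC brings iron in and ferroportin, encoded by SLC40A1, lets it out. Iron regulatory proteins, of which IREB2 encodes IRP2, bind hairpins called iron-responsive elements (IREs): binding blocks translation of ferritin and ferroportin mRNA and protects TFRC mRNA from decay. HMOX1 and both ferritin genes are also known targets of the transcription factor NRF2 and its opponent BACH1.

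The IREs are printed because they are the sequence that joins 4 of these genes to the sensor IREB2. In the GENCODE release 29 transcripts (GRCh38), a search was made in the untranslated regions for a bulged C, a stem of 5 paired bases with G-U pairs allowed, and the loop CAGTGN between the arms. It found 1 site each in the 5′ UTR of FTL, FTH1 and SLC40A1, 4 sites in the 3′ UTR of TFRC, and 0 in the other 6 genes. Such a hairpin was found in 0.111% of 18839 genes with a 5′ UTR and in 0.554% of 19143 genes with a 3′ UTR. Each site is given 5′ to 3′ as DNA over 30 bases with the loop in capitals.
FTL 5′ site, chr19:48965334-48965363, plus strand: tctcttgcttcaaCAGTGTttggacggaac
FTH1 5′ site, chr11:61967574-61967603, minus strand: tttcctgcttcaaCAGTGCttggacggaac
SLC40A1 5′ site, chr2:189580661-189580690, minus strand: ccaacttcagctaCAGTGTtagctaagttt
TFRC 3′ site 1, chr3:196050979-196051008, minus strand: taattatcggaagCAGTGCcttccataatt
TFRC 3′ site 2, chr3:196050575-196050604, minus strand: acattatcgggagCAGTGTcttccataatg
TFRC 3′ site 3, chr3:196050510-196050539, minus strand: tctgtatcggagaCAGTGAtctccatatgt
TFRC 3′ site 4, chr3:196050463-196050492, minus strand: taattatcgggaaCAGTGTttcccataatt

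The ferritin sites were identical at 27 of 30 bases. From FTL to FTH1 the differences were C2T, T5C and T19C, counted from 1 at the 5′ end of the printed site, and the last of these is the sixth base of the loop. The FTL site shared 11 to 14 bases with the TFRC sites and 14 with the SLC40A1 site. All these counts include the bulged C and the CAGTG of the loop, which the search required of every site. They were not set against a background. The hairpins say nothing about mRNA level on their own, and the libraries measure mRNA, not translation.

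Library totals ran from 22656160 to 27123657 counts, and genes of ribosomal RNA (rRNA) took 6.69% to 15.2% of them, least in replicate 3 of each group. TRIM21 itself stood at 11.7 to 15.8 CPM in shControl and at 6.68 to 8.83 CPM in shTRIM21 (log2 fold change -0.73, SE 0.17). CPM are counts relative to library sizes that were scaled by edgeR's TMM method. Without shTRIM21 replicate 3, TRIM21 fell short of the threshold (-0.62, adjusted p = 0.0734 by edgeR's quasi-likelihood test), as it did without replicate 3 of both groups (-0.45, adjusted p = 0.114). Among markers of the line, 7 of 9 epithelial genes were tested, and CEACAM5 was listed at 0. The 9 summed to 482 to 489 CPM in shControl and 476 to 510 CPM in shTRIM21, with 54.7% from DSG2. Of 12 macrophage markers, a cell type known for heme recycling, 7 were at 0 and 1 was tested. Their summed level, 400 to 481 CPM in shControl and 618 to 688 CPM in shTRIM21, was 99.9% CD68, a lysosomal protein that other cells also make. Erythroid markers summed to 3.72 to 5.15 CPM in shControl and 5.45 to 6.11 CPM in shTRIM21, with 72.3% from EPOR and with 4 of the 12 at 0, SLC4A1 and AHSP among them. Hepatocyte markers summed to at most 27.2 CPM with 95.7% from TF, endothelial markers to 0.245 to 0.286 CPM in shControl and 0.0785 to 0.232 CPM in shTRIM21, and fibroblast markers to at most 0.178 CPM. The macrophage and erythroid sums were higher in shTRIM21 and the endothelial sum was lower, without overlap between the groups. Of the 5 endothelial genes 0 were tested, and their sum is too low to be read as a difference. The part of these sums in the results was not tested. MARCO, VSIG4, MRC1, TIMD4 and the 3 C1q genes were at 0. A 0 among these markers is not read as absence, since CANX, RPL7A and ZYX were also listed at 0. In bulk RNA, fewer cells with a transcript and less of it per cell cannot be told apart.

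Of the 10 genes, 9 passed the filter on low counts. HMOX1, FTL and FTH1 were higher and IREB2 was lower in the shTRIM21 cells past an adjusted p of 0.05, in a quasi-likelihood test fitted to all 14002 tested genes, and the other 5 did not pass. The same rule called 9.08% of all tested genes, 4.43% as higher and 4.66% as lower. The groups did not overlap for 5 of the 9, against 28.1% of all tested genes. The median log2 fold change of the 9 was 0.12, and that of all tested genes was 0.01.

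**Figure D1:**
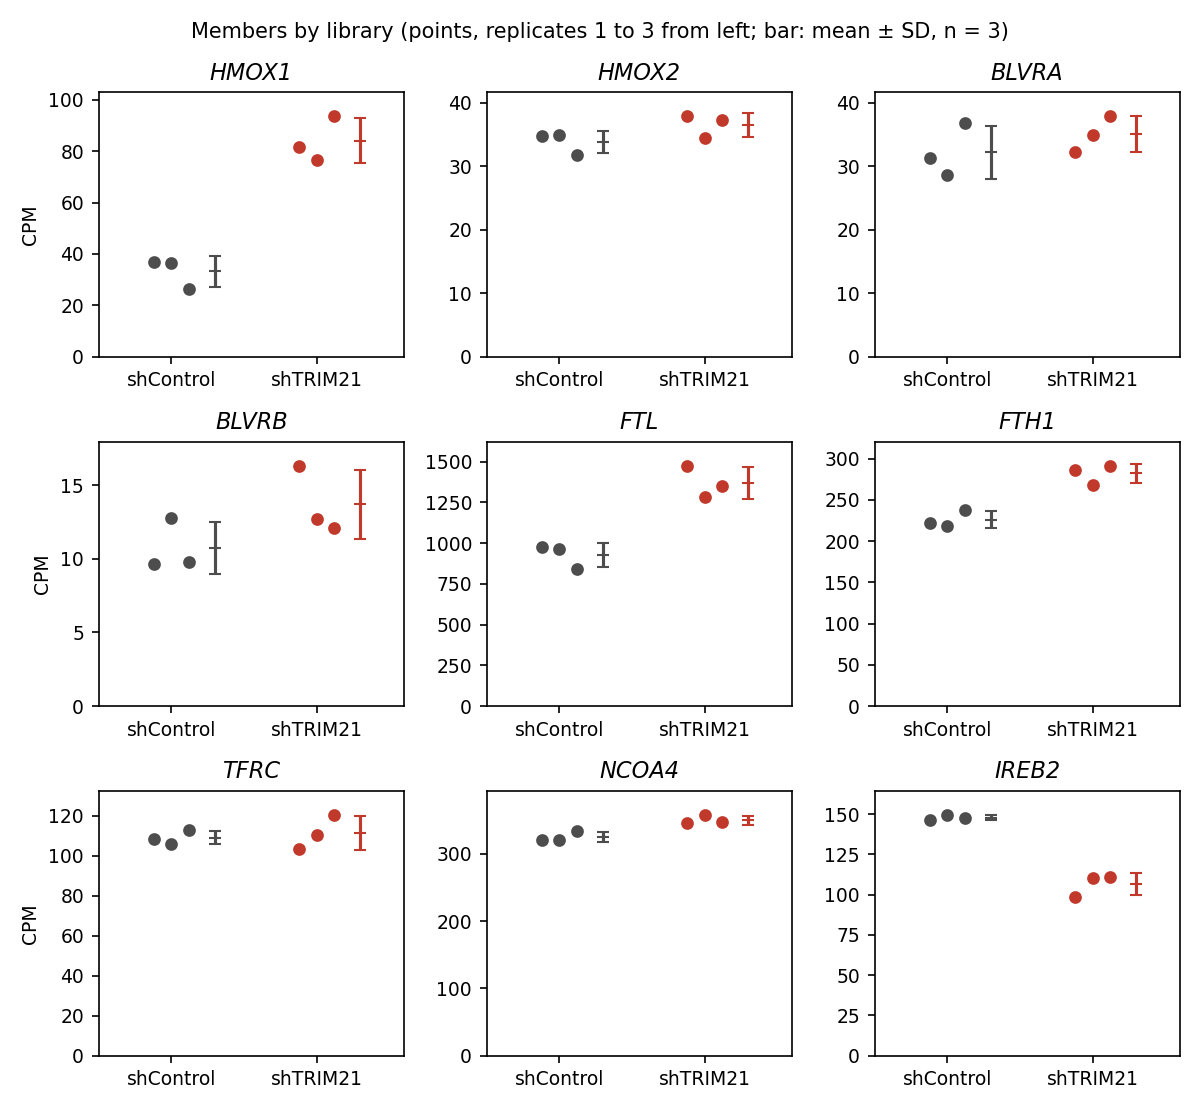
Level of each of the 9 tested genes in CPM (y axis, from 0) in the 3 shControl libraries (grey) and the 3 shTRIM21 libraries (red), with points for replicates 1 to 3 from left and a bar for the mean ± SD. HMOX1, FTL, FTH1 and NCOA4 are higher in every shTRIM21 library than in any shControl library, and IREB2 is lower in every one.

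HMOX1, the inducible heme oxygenase, lies at GRCh38 chr22:35380361-35394214, plus strand (ENSG00000100292). It gave 904, 895 and 735 counts in shControl replicates 1 to 3 and 2083, 1708 and 2426 counts in shTRIM21, or 37.0, 36.6 and 26.2 CPM against 81.7, 76.7 and 93.7 CPM. Every shTRIM21 library was above every shControl library, and the lowest value of all was in shControl replicate 3, the library with the least rRNA. HMOX1 rose 2.53-fold (log2 fold change 1.34, SE 0.11), the 87th largest log2 fold change of the 14002. Without replicate 3 of both groups the log2 fold change was 1.12.

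HMOX2, the constitutive heme oxygenase, GRCh38 chr16:4474690-4510347, plus strand, was at 34.7, 34.9 and 31.8 CPM in shControl and 37.9, 34.4 and 37.3 CPM in shTRIM21. The groups overlapped, and the log2 fold change was 0.11 with a 95% interval from -0.08 to 0.31, which does not show that the level was the same. It was 0.03 with a correction for GC content and gene length, and 0.07 without replicate 3 of both groups. HMOX1 and HMOX2 had nearly equal raw counts in the control cells, with HMOX1 at 1.06, 1.05 and 0.824 times HMOX2. In the shTRIM21 cells HMOX1 was at 2.16, 2.23 and 2.51 times HMOX2. This ratio is taken within a library and no scaling can move it. On the opposite strand HMOX2 overlaps NMRAL1, a redox-sensing protein gene with 208 to 316 counts, over 3.26% of the bases of its main transcript, and reads there cannot be told apart.

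BLVRA, the main biliverdin reductase, GRCh38 chr7:43758680-43807342, plus strand, was at 31.2, 28.6 and 36.8 CPM in shControl and 32.3, 34.9 and 37.9 CPM in shTRIM21. BLVRB, which also reduces flavins, GRCh38 chr19:40447765-40465840, minus strand, was at 9.65, 12.8 and 9.75 CPM in shControl and 16.3, 12.7 and 12.1 CPM in shTRIM21. The groups overlapped for both reductases. The log2 fold changes were 0.12 for BLVRA (95% interval from -0.11 to 0.35) and 0.35 for BLVRB (0.01 to 0.70), and neither passed after adjustment. Single libraries moved both values: BLVRA was 0.04 without shControl replicate 2, 0.06 without shTRIM21 replicate 3 and 0.23 without shControl replicate 3, and BLVRB was 0.20 without shTRIM21 replicate 1. With the correction for GC content and gene length they were 0.02 and 0.19.

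FTL, the ferritin light chain, GRCh38 chr19:48965301-48966878, plus strand (ENSG00000087086), was the most abundant of the 10. It gave 23825, 23641 and 23730 counts in shControl and 37635, 28510 and 35003 counts in shTRIM21, or 975, 966 and 845 CPM against 1477, 1281 and 1352 CPM. All shTRIM21 libraries exceeded all shControl libraries, and shControl replicate 3 was again the lowest. The rise was 1.48-fold (log2 fold change 0.56, SE 0.08). With a correction for GC content and gene length it was 0.40, which still passed.

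FTH1, the heavy chain that oxidises iron for storage, GRCh38 chr11:61959718-61967660, minus strand (ENSG00000167996), was at 222, 218 and 237 CPM in shControl and 286, 269 and 292 CPM in shTRIM21. The groups did not overlap, and the rise was 1.25-fold (log2 fold change 0.32, SE 0.06). Its count cannot be separated from that of BEST1, a chloride channel gene on the opposite strand, whose exons cover 880 of the 1229 bases of the main FTH1 transcript (71.6%). BEST1 is known for the retinal pigment epithelium, yet it was listed with 7002, 6792 and 8831 counts in shControl and 9202, 7763 and 9643 counts in shTRIM21. That was 1.26 to 1.33 times the FTH1 count in every library. BEST1 rose by 0.30 on the log2 scale (SE 0.06, adjusted p = 0.00575 by edgeR's test), close to the FTH1 value, and the 2 counts summed gave 0.31. The sum had to lie near both values and does not show to which gene the reads belong, so both the level of FTH1 and its difference are uncertain here.

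Processed copies of the ferritin genes took few reads in the tables. FTH1P3 held 16 to 26 counts per library, 0.298% of the FTH1 count over all libraries. FTLP10 was listed at 0, which is not read as absence. No other copy of these 10 genes was found by symbol. Reads lost to copies that are not rows of the tables could not be counted.

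The ratio of light to heavy chain counts also differed. FTL over FTH1 was 4.39, 4.43 and 3.56 in shControl and 5.16, 4.77 and 4.64 in shTRIM21, as ratios of raw counts, with no overlap between the groups. The mean log2 ratio was 2.04 ± 0.18 in shControl and 2.28 ± 0.08 in shTRIM21 (SD, n = 3 per group), a difference of 0.24 that was 0.14 without shControl replicate 3. How reads shared with BEST1 were assigned bears on this ratio and was not tested. The ratio carries no correction for GC content or gene length. With that correction the log2 fold changes were 0.40 for FTL and 0.23 for FTH1, so the gap between them was smaller.

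**Figure D2:**
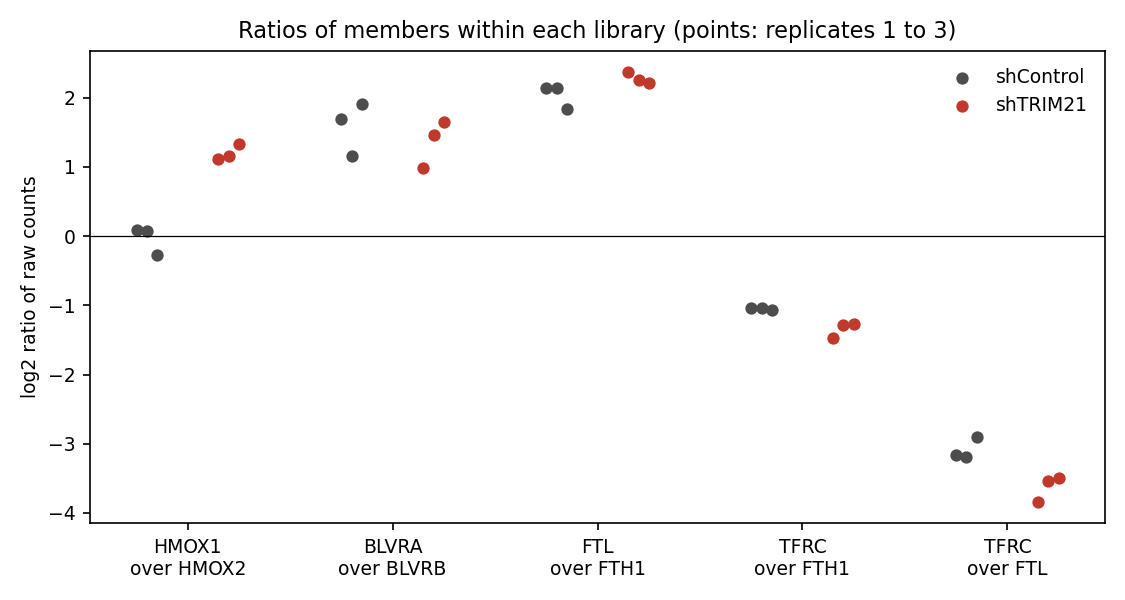
Log2 ratios of raw counts between pairs of these genes (y axis) in each of the 3 shControl (grey) and 3 shTRIM21 (red) libraries. HMOX1 over HMOX2 is separated most clearly, with a mean of -0.04 in shControl and 1.20 in shTRIM21, and BLVRA over BLVRB overlaps between the groups.

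NCOA4, the receptor that takes ferritin to the lysosome, GRCh38 chr10:46005088-46030714, minus strand, was at 320, 321 and 334 CPM in shControl and 345, 358 and 347 CPM in shTRIM21. Every shTRIM21 library was higher, but by little: the log2 fold change was 0.11 (95% interval from -0.02 to 0.23) and did not pass. It passed with the GC and length correction and the replicate number as a block together (0.12, adjusted p = 0.0454 by edgeR's test).

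TFRC, the transferrin receptor, GRCh38 chr3:196027183-196082189, minus strand, was at 109, 106 and 113 CPM in shControl and 103, 110 and 120 CPM in shTRIM21. The shTRIM21 libraries lay on both sides of the control range. The log2 fold change was 0.03 (95% interval from -0.12 to 0.18), and it turned to -0.03 without shTRIM21 replicate 3. Set against ferritin in the same library, TFRC was lower: TFRC over FTH1 was 0.489, 0.486 and 0.475 in shControl and 0.361, 0.411 and 0.413 in shTRIM21, and TFRC over FTL was 0.111, 0.110 and 0.133 against 0.0700, 0.0862 and 0.0890. Neither ratio overlapped between the groups, while TFRC itself did not pass, so both ratios mostly restate the higher ferritin counts. How reads shared with BEST1 were assigned bears on TFRC over FTH1 and was not tested. Neither ratio is corrected for GC content or gene length. With that correction the log2 fold change was 0.08 for TFRC, 0.23 for FTH1 and 0.40 for FTL, so TFRC lay closer to both.

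SLC40A1, the only known cellular exporter of iron, GRCh38 chr2:189560579-189583758, minus strand, was listed at 0 in all 6 libraries. CANX, RPL7A and ZYX, which nearly every cell line transcribes, were also listed at 0 throughout, so the 0 is not read as absence and no fold is given.

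IREB2, the iron-sensing regulator that binds the hairpins above, GRCh38 chr15:78437431-78501456, plus strand (ENSG00000136381), went the other way. It gave 3574, 3658 and 4146 counts in shControl and 2516, 2456 and 2865 counts in shTRIM21, or 146, 149 and 148 CPM against 98.7, 110 and 111 CPM. The control libraries differed by little (SD 1.64 CPM, n = 3), and all 3 shTRIM21 libraries were below them. IREB2 fell to 72.1% of the control level (log2 fold change -0.47, SE 0.07). The value was -0.38 with the GC and length correction and -0.49 without replicate 3 of both groups. IRP2 is known to be controlled mainly as a protein, which these data do not measure.

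**Figure D3:**
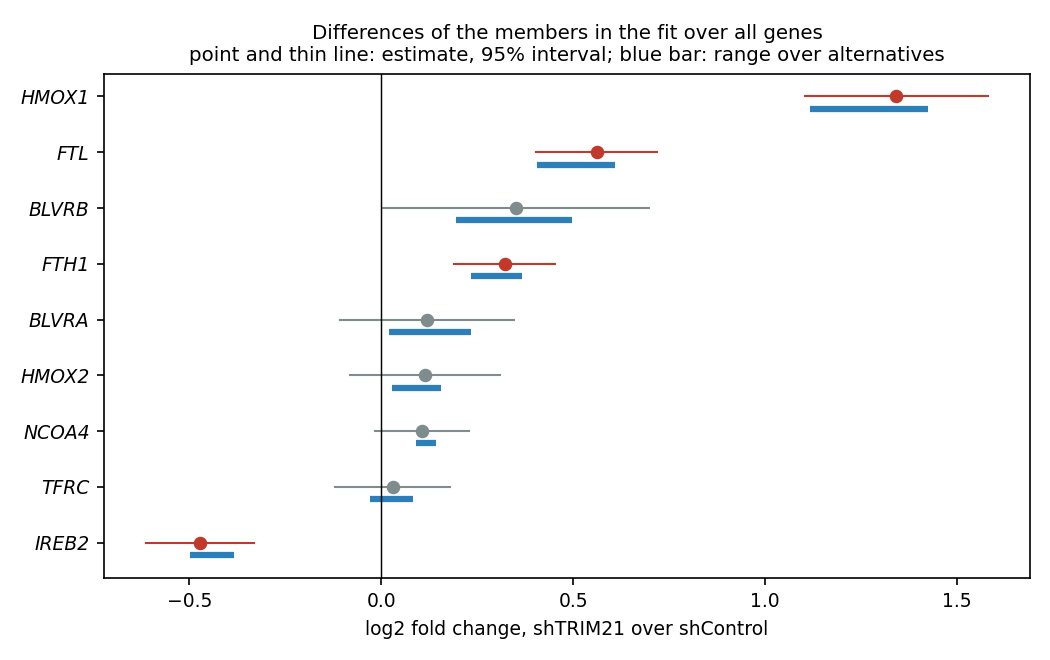
Log2 fold change of shTRIM21 over shControl for the 9 tested genes (x axis), with the 95% interval as a thin line, red where the adjusted p was under 0.05. The blue bar is the range over 21 other fits, which stayed on the same side of 0 for every gene except TFRC.

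Over 21 alternatives HMOX1 ranged from 1.12 to 1.43 on the log2 scale, FTL from 0.40 to 0.61, FTH1 from 0.23 to 0.37 and IREB2 from -0.50 to -0.38, and all 4 passed in each of them. The fits that add counts of copies, BEST1 or NMRAL1 could hardly move other genes, and HMOX1 stayed at 1.34 there. The FTH1 difference remains uncertain because of BEST1.

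Levels can be compared between genes only per length. Per kilobase of the main annotated transcript, FTL led in shControl at 1057 ± 82.6 CPM per kb, followed by FTH1 at 184 ± 8.26, NCOA4 at 141 ± 3.40, BLVRA at 27.7 ± 3.59, IREB2 at 23.3 ± 0.258, TFRC at 21.3 ± 0.672, HMOX1 at 18.2 ± 3.36, HMOX2 at 15.7 ± 0.822 and BLVRB at 12.3 ± 2.04 (SD, n = 3). Among neighbours in this order only HMOX1 and HMOX2 overlapped in their ranges. The FTH1 level is uncertain because of BEST1, and so is its distance from FTL and NCOA4. In shTRIM21, HMOX1 moved from place 7 to place 4 at 46.1 ± 4.79 CPM per kb, and IREB2 moved from place 5 to place 8 at 16.8 ± 1.07. There IREB2 overlapped both HMOX2 above it and BLVRB below it. With the length of all exons in place of the main transcript, IREB2 stood at place 7 in both groups and HMOX1 moved from place 6 to place 4.

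Other genes of heme and iron biology were described by 10 lists of 131 genes in all, of which 109 were tested. By edgeR's test over all genes 9 rose and 3 fell, 11.0% of those tested against 9.08% of all tested genes, and their median log2 fold change was 0.05. The share is near that of all genes.

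Heme synthesis showed 0 of 11 tested genes past the threshold in either direction, with a median of -0.01. ALAS1, the first and rate-limiting enzyme outside red cells, was at 66.8 ± 1.88 CPM in shControl and 70.5 ± 4.55 CPM in shTRIM21, and FECH, which inserts the iron, at 52.2 ± 4.83 and 47.1 ± 2.14 CPM (SD, n = 3 per group). These 2 were chosen for their role after their values were seen. Of 14 heme transport and binding genes 1 rose, PGRMC1, a heme-binding membrane protein, at 193, 184 and 229 CPM in shControl and 229, 243 and 247 CPM in shTRIM21 (log2 fold change 0.25, SE 0.08, adjusted p = 0.0466), a call lost in 7 of 21 alternatives, among them leaving out any single library except shControl replicate 3.

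Of 11 regulators of heme oxygenase 1 rose, MAFG, a small MAF protein that pairs with both NRF2 and BACH1. It was at 44.6, 43.1 and 38.6 CPM in shControl and 54.7, 58.5 and 49.4 CPM in shTRIM21 (log2 fold change 0.36, SE 0.09, adjusted p = 0.017). The call was lost without shTRIM21 replicate 1 (adjusted p = 0.0542) and without shTRIM21 replicate 2 (adjusted p = 0.107). The mRNAs of NRF2, BACH1 and KEAP1 did not pass, although that of NRF2 was lower in every shTRIM21 library than in any shControl library. NFE2L2, which encodes NRF2, averaged 109 ± 8.93 CPM in shControl and 96.8 ± 6.24 CPM in shTRIM21 (adjusted p = 0.17), BACH1 averaged 90.7 ± 2.11 and 99.7 ± 10.7 CPM (adjusted p = 0.318), and KEAP1, the NRF2 inhibitor, 37.8 ± 4.03 and 39.5 ± 5.98 CPM (SD, n = 3 per group, adjusted p = 0.789). These 3 were likewise chosen for their role after their values were seen.

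Of 12 iron uptake genes 1 rose and 1 fell, with a median of -0.09. STEAP1, a metalloreductase family member, was at 43.1, 43.3 and 45.2 CPM in shControl and 51.0, 52.7 and 55.4 CPM in shTRIM21 (0.27, SE 0.08, adjusted p = 0.0424). HFE, the hemochromatosis protein that binds the transferrin receptor, was at 20.8, 22.5 and 23.7 CPM against 15.0, 15.0 and 19.7 CPM (-0.43, SE 0.13, adjusted p = 0.0499). Both sat near the threshold, and their calls were lost in 9 and 8 of 21 alternatives, STEAP1 without any single library except shControl replicate 3 and HFE without any except shTRIM21 replicate 3. Of 5 iron chaperone and ferritin handling genes 1 fell, PCBP1, which hands iron to ferritin, from 249, 244 and 244 CPM to 207, 191 and 213 CPM (-0.27, SE 0.06, adjusted p = 0.0102). That call was lost without shControl replicate 1 (adjusted p = 0.0514) and without shTRIM21 replicate 2 (adjusted p = 0.081).

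Genes of iron sensing by IRPs had 0 of 8 past the threshold and those of iron export and the hepcidin axis 0 of 5, with medians of -0.08 and -0.17. ACO1, which encodes the other iron regulatory protein IRP1, averaged 58.5 ± 4.49 CPM in shControl and 67.1 ± 3.96 CPM in shTRIM21 (adjusted p = 0.151 by edgeR's test). Its groups did not overlap. FBXL5, the ligase subunit that marks IRP2 for breakdown, was at 66.5 ± 8.13 and 70.2 ± 2.31 CPM (SD, n = 3 per group, adjusted p = 0.65). Both were named for their role after their values were seen.

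Iron-sulfur cluster assembly had 2 of 25 higher, 0 lower and a median of 0.06. BOLA3, a cluster carrier, was at 11.0, 10.9 and 10.5 CPM in shControl and 16.9, 14.8 and 13.8 CPM in shTRIM21 (0.49, SE 0.14, adjusted p = 0.0365 by edgeR's test). The groups did not overlap, but the call was lost without shTRIM21 replicate 1 (adjusted p = 0.151) and without any other single library except shControl replicate 3.

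Among genes of lipid peroxidation and ferroptosis, the iron-dependent form of cell death, 3 of 14 rose, 0 fell and 13 had a positive log2 fold change, with a median of 0.32. Of all tested genes 4.43% were called higher, and their median was 0.01. The list was written with earlier results of these data known. CHAC1, PTGS2 and ALOX12, all positive, averaged at most 1.65 CPM in either group and did not pass. SAT1, a polyamine-degrading enzyme, was at 45.1, 42.7 and 44.9 CPM in shControl and 65.4, 77.8 and 74.9 CPM in shTRIM21 (0.72, SE 0.08, adjusted p = 1.91e-05). TXNRD1, thioredoxin reductase, was at 594, 592 and 619 CPM against 757, 788 and 837 CPM (0.40, SE 0.06, adjusted p = 0.000418). GPX4, which removes lipid peroxides, was at 36.3, 37.0 and 33.2 CPM against 49.8, 42.8 and 43.3 CPM (0.35, SE 0.09, adjusted p = 0.0239). GPX4 was 0.18 with the GC and length correction and did not pass (adjusted p = 0.13), nor did it pass without shControl replicate 1 (adjusted p = 0.0613), shTRIM21 replicate 1 (0.12) or shTRIM21 replicate 3 (0.056). The list holds genes that promote lipid peroxidation and genes that prevent it, so its median has no single direction of function.

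Of 7 tested mRNAs from other genes reported to carry an IRE, 1 rose and 1 fell. CDC14A, a phosphatase, was at 22.5, 20.9 and 24.9 CPM in shControl and 13.5, 15.5 and 13.6 CPM in shTRIM21 (-0.68, SE 0.13, adjusted p = 0.0022). APP, the amyloid precursor protein, was at 393, 389 and 418 CPM against 462, 471 and 466 CPM (0.22, SE 0.06, adjusted p = 0.0239). The APP call was lost with total-count scaling (adjusted p = 0.114) and without shControl replicate 1 or 2 or shTRIM21 replicate 2 or 3 (adjusted p from 0.0988 to 0.115).

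**Figure D4:**
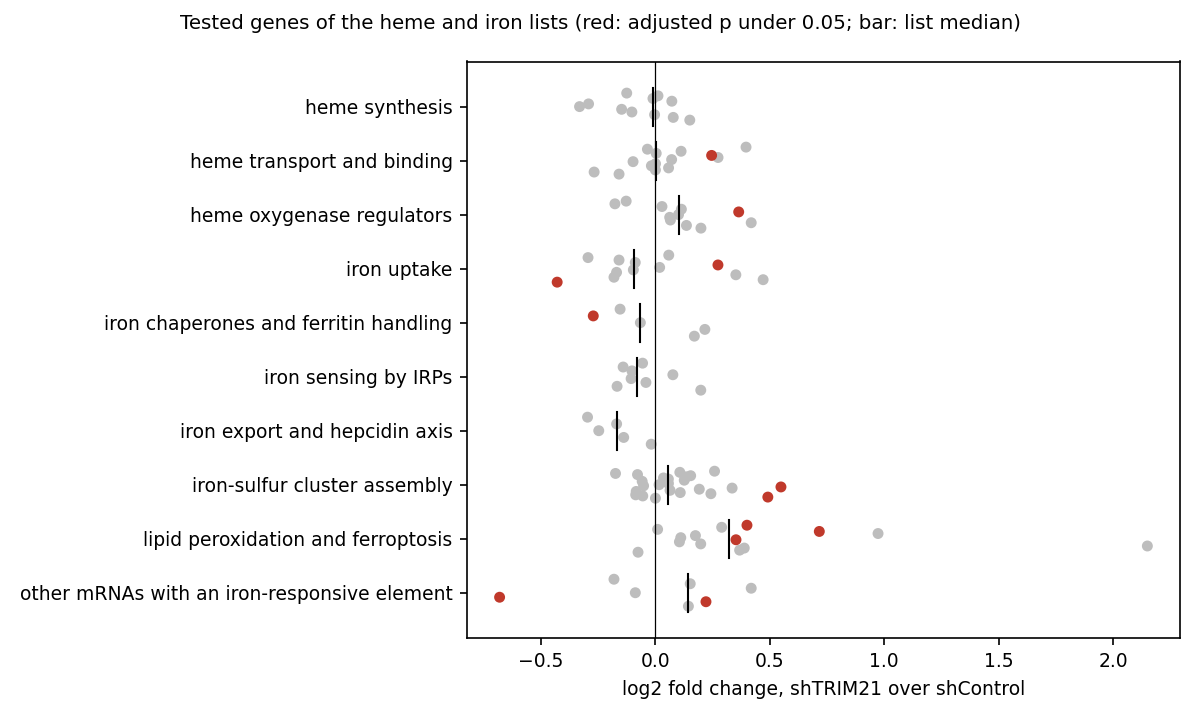
Log2 fold change of shTRIM21 over shControl (x axis) for each tested gene of the 10 heme and iron lists, red where the adjusted p was under 0.05, with a black bar at each list's median. The points of heme synthesis scatter around 0, and the highest median, 0.32, is that of the lipid peroxidation and ferroptosis list.

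Genes whose profile over the 6 libraries was most like that of HMOX1 were sought among 9957 genes by the root mean square distance between log2 CPM profiles, each centred on its own mean. The closest were LAMA1, a laminin chain (distance 0.186), S100A2, a calcium-binding protein (0.191), ARL2BP, a binding partner of a small GTPase (0.195), CCRL2, a chemokine receptor family member (0.209), and AHNAK2, a large scaffold protein (0.219). Their log2 fold changes ran from 1.04 to 1.13, all below that of HMOX1. For FTL the closest were CLEC11A, a secreted growth factor (0.0423), the read-through TMEM256-PLSCR3 and the PLSCR3 gene it overlaps (0.0445 and 0.0536), BAK1, a pro-apoptotic protein (0.0486), and FAM207A (0.0550). None of these genes is in the heme and iron lists.

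The 3′ UTRs of the main transcripts were also searched, on the mRNA strand, for 2 words of 7 bases that had earlier been picked from these same fold changes, so the matches support nothing. AGTGGAA was in 0 of the 10 and in 12.8% of 19143 genes. GTGTCAC was in TFRC, at 2 places, and in 7.89% of genes. No match says only that these letters are not in this window.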

How the data were processed

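RNA from 3 shControl and 3 shTRIM21 libraries was compared. Per the labels' protocols, Trizol RNA was depleted of rRNA before library preparation. Each deposited table holds the authors' raw counts by symbol, not normalized. Hg38, TopHat2 (2.1.1) and the packages limma (3.52.2) and edgeR (3.38.1) appear in the submitters' processing notes. How reads were assigned to genes (program, annotation, strand, multi-mapping) is not given in the sources used here.

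Members of the set, the lists and the tests were chosen with earlier results of these data known. The main test was the quasi-likelihood test of edgeR (version 4.0.16, under R 4.3.3), without a replicate term, on the 14002 genes that passed filterByExpr, with TMM scaling, Benjamini-Hochberg adjustment over all of them and a threshold of 0.05. SE is the size of the log2 fold change divided by the square root of F. The procedure was also run on simulated counts, with the outcome not reported here. Those counts were drawn without GC, length or replicate effects, so the run cannot speak to these. Named from each list were up to 4 called genes with a mean of at least 5 CPM, by size of change, and called genes that went the other way. A called gene of the lists is counted but not reported here by name. Profiles used log2 CPM with a prior count of 2. Positions, lengths and sequences come from GENCODE release 29 (GRCh38), with the principal transcript as main transcript. Alternatives covered scaling, the filter, DESeq2 1.42.0, limma-voom (limma 3.58.1), genes or libraries left out, the replicate block, GC content and length, processed copies and overlapping genes. Intervals and SE cover only the spread between libraries.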

Additional observations from a re-analysis of the deposited data

How the results depend on the processing

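The fits that add BEST1 or NMRAL1 counts to the gene they overlap were chosen after seeing the data. All tested genes together gave 1272 calls as reported, 1947 after correction for GC content and length, 2046 with that correction and the replicate block, and 602 to 1737 with 1 library left out. For the heme and iron lists the calls numbered 12 as reported, 19 and 22 under those 2 corrections, and 5 to 17 with 1 library left out. The cause was not tested. HMOX1, FTL, FTH1 and IREB2 passed in all 21 alternatives, joined by NCOA4 only under the correction with the block. Among the 21, the fits that add counts of copies or overlapping genes could hardly change these calls. TFRC ran from -0.0294 (without shTRIM21 replicate 3) to 0.0815 with 1 library left out. No label says that a replicate number marks a shared culture or day, so the numbers were not taken as pairs. Correlations of deviations between libraries of the same number were 0.096, -0.0123 and 0.0907, which does not decide the question. The best match of a library carried its own number for numbers 1 and 3, but not for 2. The replicate block gave 1699 calls over all genes and 15 in the lists, and the same 4 of the 10 genes passed.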
